A study of Homo sapiens with 4 samples.

Results

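The start sites of 10 genes of the TGF-beta and BMP pathways were followed through H3K27ac HiChIP of 4 untreated colorectal cancer cell lines. The genes were SMAD7, SMAD3, SMAD6, BMP4, BMP2, ID1, ID2, ID3, SKIL and BAMBI. HiChIP ligates DNA ends that lie together in fixed nuclei and keeps those bound by an antibody, here against acetylated lysine 27 of histone H3, a mark of active promoters and enhancers. Each value counts paired-end tags (PETs) between anchors, which are the stretches of DNA the authors tabulated. A gene was measured through every anchor lying within 5 kb of its start site (hg19, given to the nearest 1 kb), either as same-anchor PETs, with both ends in that anchor, or as loop PETs, which join it to another anchor. All 10 genes had PETs in at least 1 line. They took 107 of the 62104 loops of SW620, 22 of 7024 in SW480, 87 of 40696 in HCT116 and 116 of 74401 in LS513.

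The lines, bought from ATCC, were SW620 (Dukes' type C adenocarcinoma), SW480 (Dukes' type B adenocarcinoma), HCT116 (colorectal carcinoma) and LS513 (Dukes' type C carcinoma), with 1 library each. SW620 and SW480 are known to come from a metastasis and the primary tumour of the same patient. Levels are given as normalised PETs, that is PETs per 1000000 same-anchor PETs, or per 1000000 loop PETs, of the library. Same-anchor PETs ran from 130508 in SW480 to 1386645 in LS513, and loop PETs from 13885 in SW480 to 222113 in LS513. Intervals cover counting error at the 95% level and nothing else, because no line had a replicate. Each library pools many cells, so a mark on fewer cells and less of it per cell cannot be told apart, nor can gene copy number and acetylation per copy.

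In this pathway, secreted ligands such as BMP2 and BMP4 bring together receptor kinases at the cell surface, and the receptors phosphorylate SMAD proteins that enter the nucleus. SMAD3 carries the TGF-beta branch. SMAD6 and SMAD7 are inhibitory SMADs, BAMBI is a decoy receptor without a kinase, and SKIL (SnoN) is a repressor that binds SMADs. ID1, ID2 and ID3, inhibitors of helix-loop-helix transcription factors, are classical targets of BMP signals. In the gut, BMP signals restrain stem cells of the crypt, and many colorectal tumours lose the growth arrest that TGF-beta brings.

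RefSeq promoters (GRCh38.p14, 250 bases before to 50 after a start) were found for 9 of the 10 genes, in 17 windows. BMP2 had no entry. They were searched on both strands for the SMAD-binding palindrome GTCTAGAC, the GC-rich motif GGCGCC and the short SMAD core CAGAC, none of which contains another. GTCTAGAC was found in 0.202% of 35116 RefSeq promoters of this length, GGCGCC in 19.2% and CAGAC in 45.3%. Of the 17 windows here, 1 held GTCTAGAC (SMAD6), 4 held GGCGCC, in 4 genes, and 11 held CAGAC, in 6 genes. The promoters of SMAD6, which holds the rare palindrome, BAMBI, which holds GGCGCC 3 times, ID1, the most marked start in SW620, and ID3, whose level in SW620 was far below HCT116 and LS513, are shown 5′ to 3′ with these motifs in capitals. SMAD6 lies at chr15:66701986-66702285 on the plus strand, BAMBI at chr10:28677271-28677570 on the plus strand, ID1 at chr20:31605039-31605338 on the plus strand and ID3 at chr1:23559452-23559751 on the minus strand, all in GRCh38.p14.
SMAD6: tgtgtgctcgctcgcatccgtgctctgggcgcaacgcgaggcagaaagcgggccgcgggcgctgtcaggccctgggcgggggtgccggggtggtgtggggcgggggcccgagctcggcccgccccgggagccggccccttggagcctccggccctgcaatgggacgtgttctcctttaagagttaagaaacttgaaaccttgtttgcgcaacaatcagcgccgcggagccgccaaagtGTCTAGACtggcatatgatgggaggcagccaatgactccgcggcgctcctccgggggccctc
BAMBI: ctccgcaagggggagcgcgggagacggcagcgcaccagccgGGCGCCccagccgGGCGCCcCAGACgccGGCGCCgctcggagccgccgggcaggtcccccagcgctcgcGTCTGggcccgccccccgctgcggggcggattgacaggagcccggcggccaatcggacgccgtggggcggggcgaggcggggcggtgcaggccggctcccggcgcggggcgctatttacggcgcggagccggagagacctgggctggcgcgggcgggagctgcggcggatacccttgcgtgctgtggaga
ID1: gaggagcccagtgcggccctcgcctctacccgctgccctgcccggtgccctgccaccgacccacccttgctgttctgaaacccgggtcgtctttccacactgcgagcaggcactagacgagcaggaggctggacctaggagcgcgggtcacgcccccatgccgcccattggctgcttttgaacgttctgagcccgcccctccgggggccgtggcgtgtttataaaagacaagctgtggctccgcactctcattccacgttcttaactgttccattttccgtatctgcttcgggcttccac
ID3: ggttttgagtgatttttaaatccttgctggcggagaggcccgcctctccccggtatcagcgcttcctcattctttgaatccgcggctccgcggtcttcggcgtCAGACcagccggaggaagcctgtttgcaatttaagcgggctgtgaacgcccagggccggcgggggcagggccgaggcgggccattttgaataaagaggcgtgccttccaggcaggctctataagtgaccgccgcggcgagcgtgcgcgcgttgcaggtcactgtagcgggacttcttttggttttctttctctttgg
A match describes these letters and does not mark a bound site. All coordinates below are hg19.

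Which start sites had an anchor at all differed between the lines. HCT116 and LS513 had an anchor at all 10 genes, SW620 at 9 and SW480 at 4, namely SMAD3, BMP4, ID3 and SKIL. The SKIL anchor in SW480 had loop PETs but 0 same-anchor PETs, so it would not count in the shares that follow. Across all regions with at least 10 same-anchor PETs in any line, such PETs were present in 78.3% in SW620, 30.2% in SW480, 77.9% in HCT116 and 78.0% in LS513, so a lack of anchors was common throughout the SW480 library. Where a library has no anchor, its PETs were not tabulated, and a count of 0 there is a missing anchor rather than a measured level. The nearest SW480 anchor ended 5.39 kb from the SMAD7 start and 6.21 kb from the BAMBI start, just outside the limit. It lay 17.4 kb from ID2, 19.8 kb from ID1, 39.9 kb from SMAD6 and 65.6 kb from BMP2. Anchor length differed too: at SMAD7 it was 3.46 kb in SW620 and 36.9 kb in HCT116 and LS513, and at ID3 the SW620 anchors measured 2.6 and 5.51 kb, the SW480 anchor 1.89 kb and that of HCT116 and LS513 26.9 kb.

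**Figure D1:**
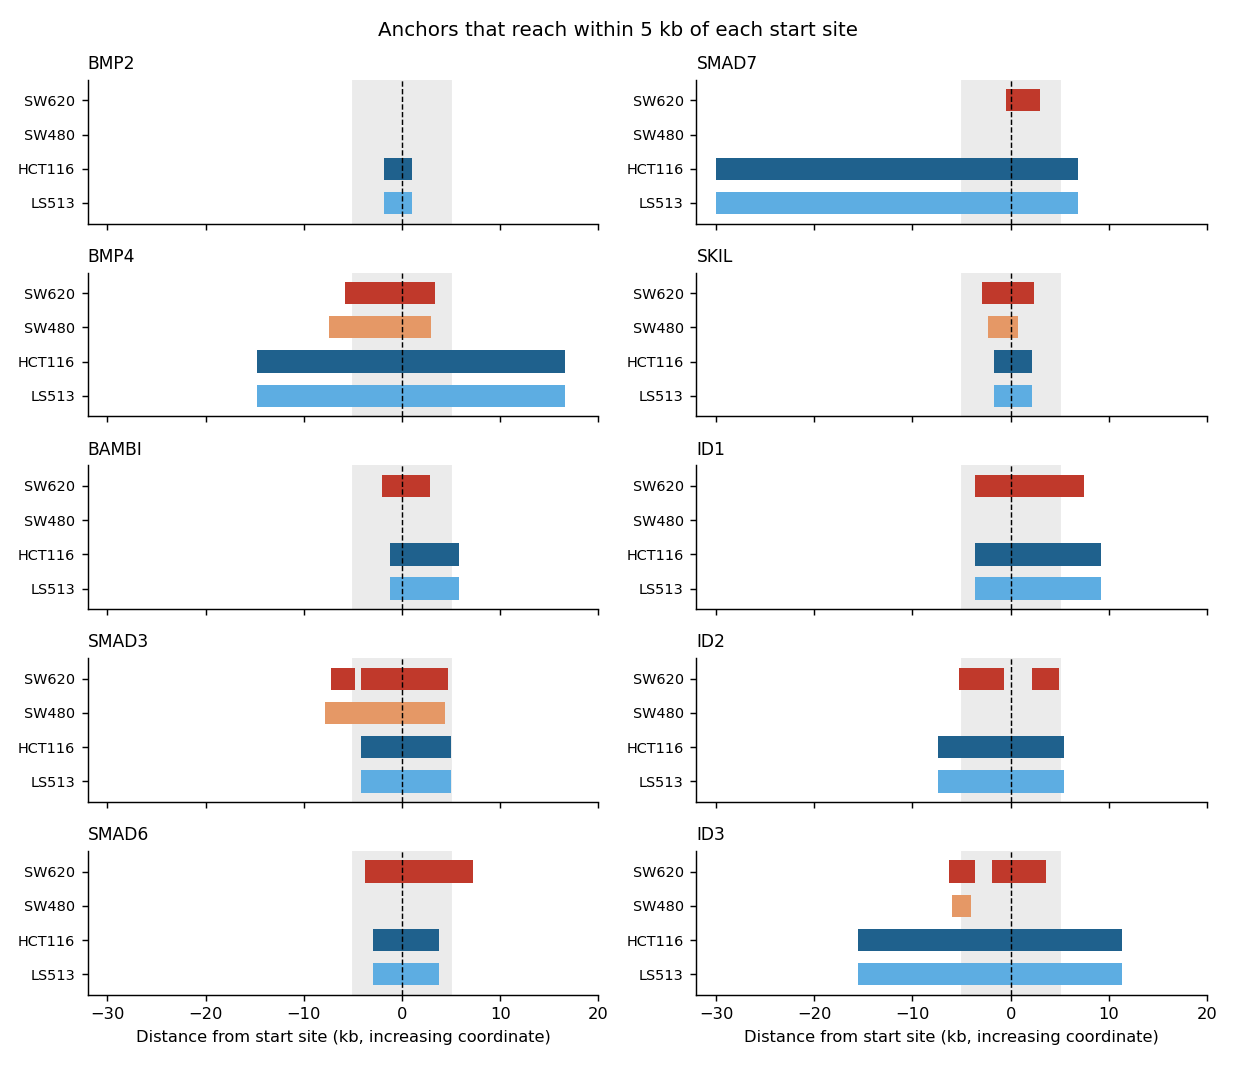
Anchors that reach within 5 kb of each start site, by line; bars run from the anchor's start to its end in kb from the start site (dashed line), and the grey band marks 5 kb on either side. HCT116 and LS513 share their anchors at all 10 genes, SW480 has an anchor at 4 genes, and the anchors at SMAD7, BMP4 and ID3 are longest in HCT116 and LS513.

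Of the ligand genes, BMP2 was marked most in LS513. BMP2, a ligand that drives differentiation, had 0 same-anchor PETs in SW620 and SW480 (no anchor), 25 in HCT116 and 162 in LS513. These are 29.0 normalised PETs in HCT116 and 117 in LS513. LS513 was thus 4.03-fold above HCT116, the next line (interval 2.64 to 6.42), on an identical anchor at chr20:6747149-6750040. The nearest SW620 anchor to this start lay 643 kb away.

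The BMP2 anchor was marked but hardly looped. It had 1 loop PET in LS513 and 0 in HCT116. Among 1268 LS513 anchors with 0.8 to 1.25 times as many same-anchor PETs, the median was 35 loop PETs, and 0.789% had as few or fewer. Its surroundings were also sparse, with 18 anchors within 2 Mb in LS513 against a median of 48 over all anchors.

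BMP4, a ligand of the crypt stroma that colorectal cancer cells can also make, had 116 same-anchor PETs in SW620, 35 in SW480, 136 in HCT116 and 624 in LS513. These are 137 normalised PETs in SW620, 268 in SW480, 158 in HCT116 and 450 in LS513. LS513 stood 1.68-fold above SW480 (interval 1.19 to 2.43), SW480 stood 1.70-fold above HCT116 (1.14 to 2.48), and the interval for HCT116 over SW620 held 1 (0.889 to 1.48). Anchor length bears on this order: per kb of anchor, BMP4 had 15.0 normalised PETs in SW620, 25.8 in SW480, 5.02 in HCT116 and 14.3 in LS513. On the anchor it shares with LS513, HCT116 was at 0.350 of the LS513 level (0.289 to 0.422). Loop PETs at BMP4 gave another order, with 308 normalised PETs in SW620, 1656 in SW480, 588 in HCT116 and 972 in LS513, each step off 1 on this scale. The SW480 value rests on 23 PETs, with an interval of 1050.1 to 2486. SW480 over LS513, 1.70 by loop PETs (1.06 to 2.62), was 1.05 scaled by chromosome (0.652 to 1.62) and 1.2 by all intrachromosomal PETs (0.744 to 1.85). With loops of at least 2 PETs it was 1.56 (0.892 to 2.56), so the lead of SW480 depended on the scale. HCT116 over SW620, 1.91 by loop PETs (1.25 to 2.92), rested on 48 and 47 loop PETs. These libraries held 956430 and 1016377 intrachromosomal PETs, so by that scale the 2 lines were close.

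Of the 12 loops of BMP4 in SW620, 7 had both anchors overlapping a loop (by at least 1 bp) in each of the other 3 lines. Genes without a SW480 anchor could have none, and at ID2, which has none, 12 of 21 SW620 loops were found in both HCT116 and LS513. These ID2 loops count a partner again where it was joined to both SW620 anchors of the gene. In LS513 its strongest partner, chr14:54631539-54651870, was centred 219 kb to the higher-coordinate side and held 65 of 216 loop PETs, or 30.1% (Clopper-Pearson 24.1 to 36.7). The same partner led in HCT116 with 11 of 48 PETs, 22.9% (12.0 to 37.3). In SW620 and SW480 the leading partner was nearer, centred at 155 and 156 kb. It was chr14:54566066-54590604 with 11 PETs in SW620 and chr14:54566436-54590604 with 6 PETs in SW480. LS513 held 33 PETs at an overlapping partner, chr14:54566066-54577884. A partner on the other side, chr14:54073839-54083002, centred 345 kb away, held 5 PETs in HCT116 and 35 in LS513. HCT116 was at 0.389 of the normalised LS513 level there (0.119 to 0.997) and at 0.461 at the partner 219 kb away (0.219 to 0.880). In the authors' deposited table these loops carry an FDR of 1.79e-11 in HCT116 and 0 in LS513 for the 345 kb partner.

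BAMBI, the decoy receptor, had an anchor within 5 kb in 3 lines, among which SW620 had most loop PETs. It had 176 same-anchor PETs in SW620, 0 in SW480, 128 in HCT116 and 328 in LS513. These are 208 normalised PETs in SW620, 148 in HCT116 and 237 in LS513, and SW620 and LS513 could not be told apart (LS513 over SW620 1.14, interval 0.942 to 1.37). Other scales set them apart in opposite directions. SW620 stood 1.26-fold above LS513 per kb of anchor (1.04 to 1.52), and LS513 stood 1.47-fold above SW620 scaled by chromosome (1.22 to 1.78). When anchors within 10 kb were taken, SW620 had 239 same-anchor PETs, or 283 normalised PETs, and SW480 had 42, or 322 normalised PETs. By loop PETs, SW620 then had 56, or 367 normalised PETs, and SW480 had 17, or 1224, a ratio of 0.3 (0.172 to 0.551). The count of 0 for SW480 at BAMBI follows from the 5 kb limit, and with the wider limit SW480 leads by loop PETs.

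Loop PETs at BAMBI were 40 in SW620, 0 in SW480, 4 in HCT116 and 21 in LS513. SW620, at 262 normalised PETs, stood 2.78-fold above LS513, at 94.5 (interval 1.60 to 4.96), or 1.92-fold (1.1 to 3.43) when scaled by chromosome. The gene's loops ran to the higher-coordinate side, with 33 of 40 PETs in SW620, 4 of 4 in HCT116 and 20 of 21 in LS513. In LS513 a single partner centred 315 kb away, chr10:29278779-29282224, held 16 of the 21 PETs, or 76.2% (52.8 to 91.8). In SW620 the partner over the same place, chr10:29271687-29284432, held 10 PETs, beside 11 PETs at chr10:29188810-29218831, centred 238 kb away. HCT116 held 1 PET at the 315 kb partner. For its same-anchor PETs, BAMBI looped little in HCT116: of 1035 anchors with like same-anchor counts, 8.21% had as few loop PETs or fewer, and their median was 16. The same share was 51.8% in SW620 and 10.2% in LS513.

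SMAD3, the signal carrier of the TGF-beta branch, was marked alike in the lines other than SW480 by same-anchor PETs within 5 kb. It had 221 same-anchor PETs in SW620, 83 in SW480, 249 in HCT116 and 342 in LS513. These are 262 normalised PETs in SW620, 636 in SW480, 289 in HCT116 and 247 in LS513. The neighbours in order HCT116, SW620 and LS513 did not differ beyond counting error, while SW480 stood 2.20-fold above HCT116 (interval 1.70 to 2.84). That ratio was 1.65 per kb of anchor (1.27 to 2.12) and 1.70 scaled by chromosome (1.31 to 2.19), both under the 2-fold mark. The likeness of the other lines also depended on the anchors. Per kb of anchor, SW620 had 23.4 normalised PETs (20.4 to 26.7) and HCT116 31.5 (27.7 to 35.6). LS513 had 26.9 on that scale (24.1 to 29.9). With anchors within 10 kb, SW620 had 456 normalised PETs, HCT116 289 and LS513 247. Loop PETs spread more, with 663 normalised PETs in SW620, 1440.4 in SW480, 490.3 in HCT116 and 189 in LS513. HCT116 was 2.59-fold above LS513 (1.64 to 4.10), although their same-anchor levels differed by 1.17-fold with an interval that held 1 (0.990 to 1.38). Scaled by all intrachromosomal PETs, which lowers every HCT116 over LS513 loop ratio by the same factor, the SMAD3 loop ratio was 1.64 (1.03 to 2.58).

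The median distance of SMAD3 loop PETs was 67.7 kb in SW620, 40.0 kb in SW480, 42.3 kb in HCT116 and 60.3 kb in LS513. HCT116 and LS513 shared the leading partner, chr15:67330285-67344932, centred 20.4 kb away on the lower-coordinate side, with 16 and 13 PETs. Per loop PET of the library this was 3.35-fold more in HCT116 (1.51 to 7.57). A partner centred 42.3 kb to the other side, chr15:67396451-67404090, held 12 PETs in HCT116, against 5 in LS513, which is 6.53-fold more in HCT116 (2.14 to 23.7). Scaled by all intrachromosomal PETs, both partner ratios are lower by the same factor as that of the whole gene. In SW620 the leading partners lay on that side, chr15:67405131-67446302 with 30 PETs and chr15:67367091-67404090 with 25. SW480 held 5 PETs at chr15:67339187-67344387 and 4 at chr15:67391969-67404090, with FDRs of 0.0613 and 0.11 in the authors' deposited table. PETs were thus counted on both sides there, but 0 of the 8 SMAD3 loops of SW480 had an FDR below 0.01. SMAD3 and SMAD6 are neighbouring coding genes in RefSeq (GRCh38.p14), and 0 loops joined these promoters, or those of any other pair of the 10 genes, in any line.

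Of the inhibitors inside the cell, SMAD6, which mainly curbs BMP signals, had an anchor in 3 lines. Its same-anchor PETs were 53 in SW620, 0 in SW480 (no anchor), 20 in HCT116 and 50 in LS513. SW620, at 62.8 normalised PETs, stood 1.74-fold above LS513, at 36.1 (interval 1.16 to 2.61), and LS513 over HCT116, at 23.2, had an interval that held 1 (0.910 to 2.76). These counts were above the median anchor in SW620 (53 against 14) and LS513 (50 against 25) and near it in HCT116 (20 against 21). Per kb of anchor SW620 and LS513 could not be told apart (1.07, 0.716 to 1.61). In SW620 and LS513 most of its loop PETs went to a single stretch on the higher-coordinate side. That stretch was chr15:67024938-67073539 in SW620, with 22 of 34 PETs (64.7%, 46.5 to 80.3). In HCT116 and LS513 it was chr15:67054014-67074794, with 3 of 7 PETs in HCT116 (42.9%, 9.90 to 81.6) and 18 of 28 in LS513 (64.3%, 44.1 to 81.4).

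SMAD7, an inhibitor of TGF-beta receptors and itself a TGF-beta target, had 14 same-anchor PETs in SW620, 0 in SW480, 270 in HCT116 and 400 in LS513. These are 16.6 normalised PETs in SW620, 313 in HCT116 and 288 in LS513. SW620 was at 0.0575 of the LS513 level (interval 0.0311 to 0.0976). The gene reads toward lower coordinates, and its anchor in HCT116 and LS513, chr18:46446993-46483863, runs far into that side, while SW620 split the same stretch. With anchors within 10 kb, which takes in the next SW620 anchor, the counts were 95 in SW620, 19 in SW480, 293 in HCT116 and 406 in LS513, or 112, 146, 339.5 and 293 normalised PETs in the same order. Per kb of anchor the SMAD7 start had 4.79 normalised PETs in SW620 (2.62 to 8.04), 8.48 in HCT116 (7.5 to 9.55) and 7.82 in LS513 (7.07 to 8.62), so the difference to SW620 is under 2-fold there. Chromosome 18 as a whole held 0.657% of the same-anchor PETs in SW620, 1.57% in SW480, 1.14% in HCT116 and 1.03% in LS513, and scaled by that chromosome SW620 was at 0.0918 of the HCT116 level (0.0495 to 0.157) and 0.0904 of the LS513 level (0.0490 to 0.154). Loop PETs at SMAD7 were 203 normalised PETs in SW620, 245 in HCT116 and 302 in LS513, and no neighbours in that order differed beyond counting error. In SW620, 13 of the 31 loop PETs joined the start site to chr18:46448251-46471125, a stretch that is part of the start-site anchor itself in HCT116 and LS513. The loop with most PETs reached chr18:46353191-46362905 in HCT116, with 5 PETs, and chr18:46512949-46535582 in LS513, with 12.

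SKIL, the SMAD repressor, was the least marked of the genes with an anchor in every line. It had 13 same-anchor PETs in SW620, 0 in SW480, 4 in HCT116 and 20 in LS513. The SW620 and LS513 levels, 15.4 and 14.4 normalised PETs, did not differ beyond counting error (SW620 over LS513 1.07, interval 0.488 to 2.25). Loop PETs at SKIL numbered 15 in SW620, 2 in SW480, 1 in HCT116 and 0 in LS513. SW620 was at 98.4 normalised loop PETs, 8.03-fold above HCT116 (1.24 to 338). SW480 was at 144 from its 2 PETs, and SW480 over SW620 had an interval that held 1 (1.46, 0.162 to 6.29). The interval of the LS513 count of 0 reached 16.6 normalised loop PETs. Its strongest loop, 7 PETs in SW620, reached chr3:170045649-170050203, centred 27.1 kb away, with an FDR of 0.0361 in the authors' deposited table.

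The ID genes stand at the end of the BMP branch. ID1 had 408 same-anchor PETs in SW620, 0 in SW480, 259 in HCT116 and 357 in LS513. These are 483 normalised PETs in SW620, 300.1 in HCT116 and 257 in LS513. SW620 stood 1.61-fold above HCT116 (interval 1.37 to 1.89), and HCT116 over LS513 had an interval that held 1 (0.989 to 1.37). SW620 over HCT116 was 1.06 scaled by chromosome (0.909 to 1.25) and 1.06 with anchors within 10 kb (0.93 to 1.21), so its lead did not hold there. SW480 had 0 same-anchor PETs in anchors within 10 kb or 20 kb of ID1 as well. Set at the floor of 3 counts, SW480 would be 21.0-fold below SW620 (lower bound 17.0), which assumes that PETs at this place would have been tabulated.

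Where ID1 was looped, the partners were alike. In HCT116 and LS513 the leading partner was chr20:30146957-30166315, centred 36.4 kb to the lower-coordinate side, with 39 of 68 PETs in HCT116 and 67 of 110 in LS513. In SW620 it was the overlapping chr20:30144616-30162737, with 67 of 104 PETs. Its share of the gene's loop PETs was 64.4% in SW620 (54.4 to 73.6), 57.4% in HCT116 (44.8 to 69.3) and 60.9% in LS513 (51.1 to 70.1), with overlapping intervals. A nearer partner on that side, chr20:30174539-30186645, held 16 PETs in HCT116 and 12 in LS513, 3.63-fold more in HCT116 per loop PET of the library (1.61 to 8.41). Over all ID1 loop PETs, HCT116 over LS513 was 1.68 on that scale and 1.06 when scaled by all intrachromosomal PETs.

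ID2 had 213 same-anchor PETs in SW620, 0 in SW480, 308 in HCT116 and 600 in LS513. LS513, at 433 normalised PETs, stood 1.21-fold above HCT116, at 357 (interval 1.06 to 1.40), and HCT116 stood 1.42-fold above SW620, at 252 (1.18 to 1.69). This order depended on the anchors. Per kb of anchor, SW620 had 34.2 normalised PETs (29.7 to 39.1), HCT116 27.7 (24.7 to 30.9) and LS513 33.5 (30.9 to 36.3). With anchors within 2 kb, SW620 fell to 27 PETs, or 32.0 normalised PETs. Its anchor with 186 PETs begins 2.17 kb from the start site. Loop levels at ID2 did not differ beyond counting error between neighbours, at 453 normalised PETs in SW620, 613 in HCT116 and 540.3 in LS513. Nearly all loops ran to the lower-coordinate side in HCT116 (46 of 50 PETs) and LS513 (116 of 120). The leading partner there, chr2:8744269-8780967, centred 59.4 kb away, held 48.0% of the gene's loop PETs in HCT116 (33.7 to 62.6) and 54.2% in LS513 (44.8 to 63.3). In SW620 ID2 had a pair of anchors, chr2:8816699-8821273 and chr2:8824174-8826975, joined to each other by 8 PETs. They sent 13 and 10 PETs to chr2:8761233-8780803, which lies in the leading partner of the other lines.

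ID3 had far fewer PETs in SW620 than in HCT116 and LS513. It had 16 same-anchor PETs in SW620, 3 in SW480, 260 in HCT116 and 277 in LS513. These are 18.9 normalised PETs in SW620, 23.0 in SW480, 301 in HCT116 and 199.8 in LS513. SW620 was at 0.0629 of the HCT116 level (interval 0.0354 to 0.104) and at 0.0948 of the LS513 level (0.0535 to 0.157). Per kb of anchor, ID3 had 2.33 normalised PETs in SW620 (1.33 to 3.79), 12.2 in SW480 (2.51 to 35.5), 11.2 in HCT116 (9.88 to 12.6) and 7.43 in LS513 (6.58 to 8.35). On that scale SW620 stays below HCT116 and LS513, while SW480, from 3 PETs in a 1.89 kb anchor, overlaps them. With anchors within 20 kb the counts were 26 in SW620, 3 in SW480, 273 in HCT116 and 295 in LS513.

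Loop PETs at ID3 were also few in SW620, with 7 there, 0 in SW480, 64 in HCT116 and 97 in LS513. LS513, at 437 normalised loop PETs, stood 9.51-fold above SW620, at 45.9 (4.44 to 24.3). HCT116, at 785, stood 1.80-fold above LS513 (1.29 to 2.49), but 1.13-fold with an interval that held 1 (0.813 to 1.57) when scaled by all intrachromosomal PETs. The leading partner, chr1:23960030-23967263, centred 77.6 kb to the higher-coordinate side, held 23 of 64 PETs in HCT116 and 32 of 97 in LS513, or 35.9% (24.3 to 48.9) and 33.0% (23.8 to 43.3). HCT116 had 1.96-fold more PETs there per loop PET of the library (1.09 to 3.45), a ratio that is also lower when scaled by all intrachromosomal PETs. In SW620 no ID3 loop held more than 2 PETs, and 0 of its 6 loops had an FDR below 0.01 in the authors' deposited table.

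**Figure D2:**
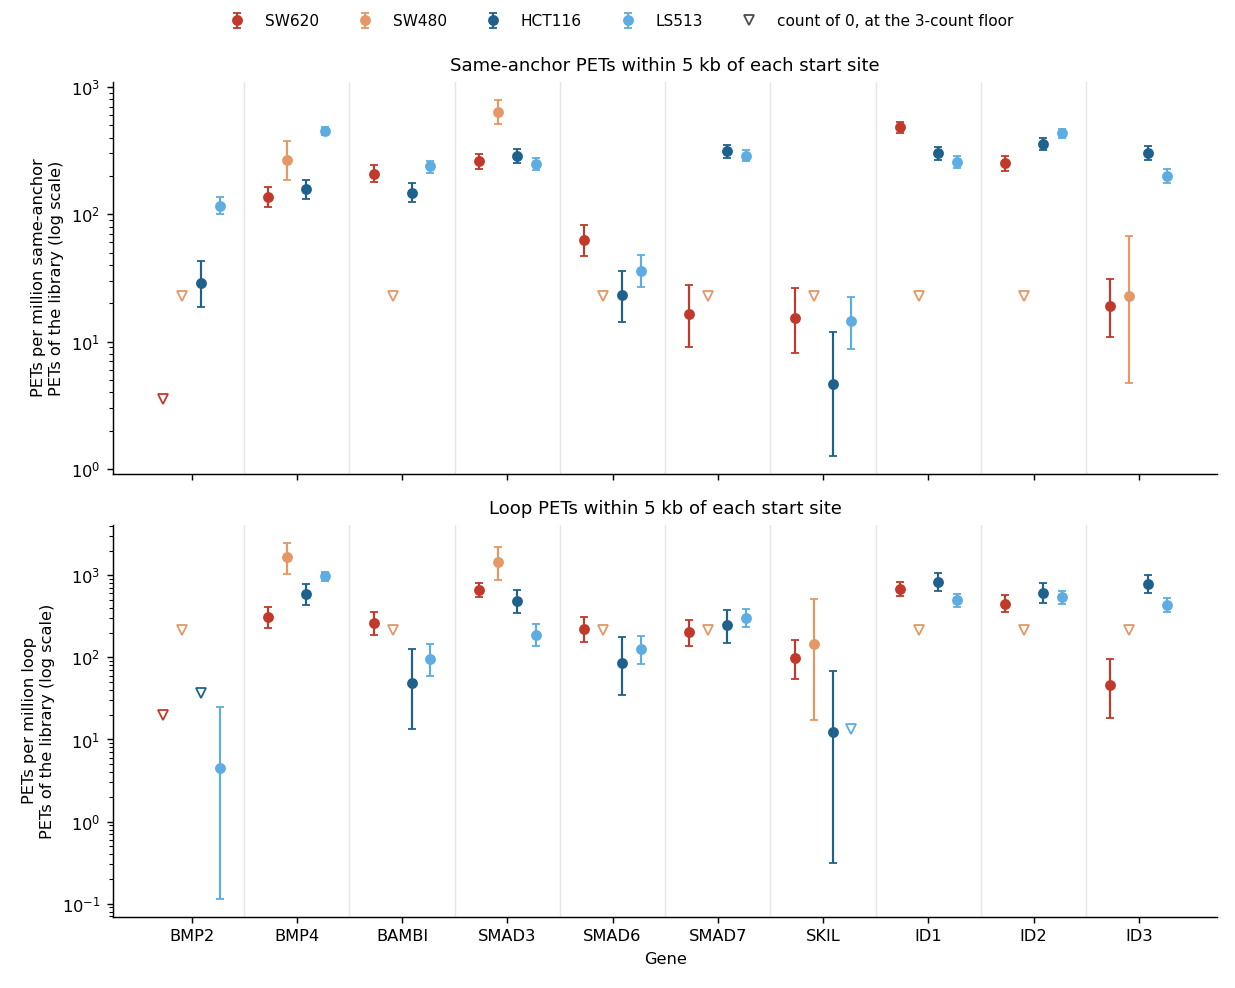
Normalised same-anchor PETs (top) and loop PETs (bottom) at each gene, on log axes, with exact 95% Poisson intervals; open triangles stand at the floor of 3 counts where a count was 0. ID3 is at 18.9 in SW620 and 23.0 in SW480 (from 3 PETs), against 301 in HCT116 and 199.8 in LS513, and BMP2 is seen in HCT116 and LS513 only.

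**Figure D3:**
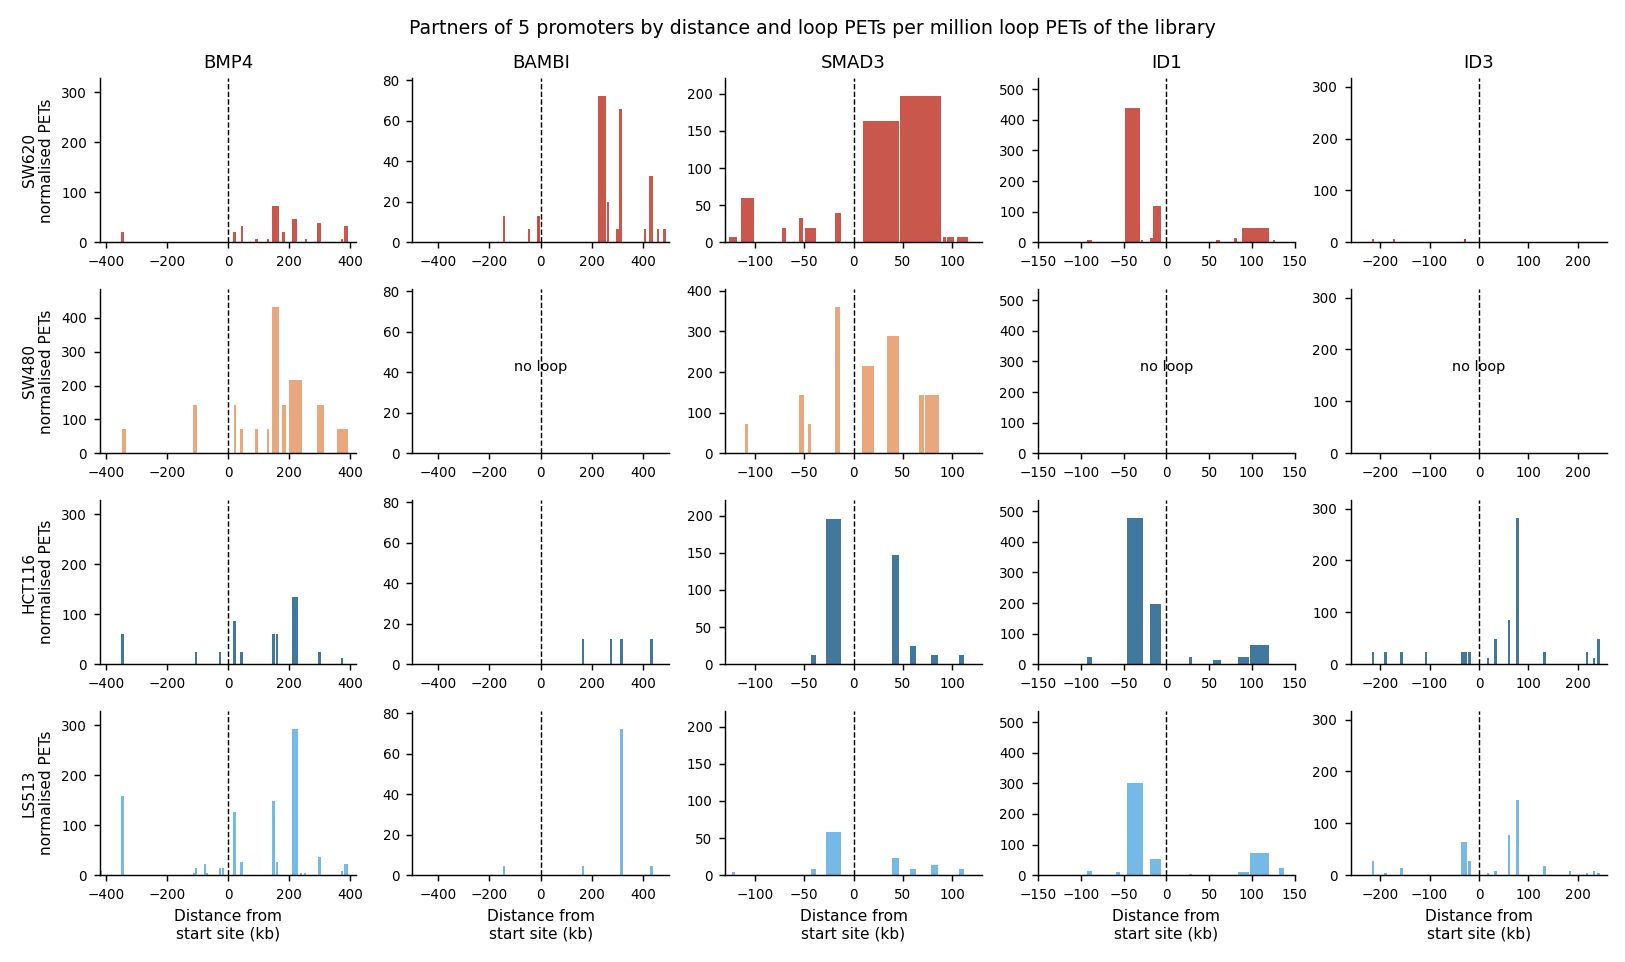
Partner anchors of 5 promoters by distance from the start site (kb, increasing coordinate; bars span the partner, the narrowest widened to be visible) and normalised loop PETs, by line; the vertical scale of SW480 differs at BMP4 and SMAD3. The ID1 partner 36.4 kb away leads in HCT116 and LS513 and its overlapping counterpart in SW620, whereas the ID3 partner 77.6 kb away is seen in HCT116 and LS513 only.

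The pair SW620 and SW480 was compared over all 10 genes. A gene was counted higher or lower where the ratio was at least 2-fold, its interval lay on one side of 1 and the higher line had at least 10 PETs. By same-anchor PETs, 4 of the 8 genes that met the count minimum were higher in SW620, namely SMAD6, ID1, ID2 and BAMBI, and 1 was lower, SMAD3. Over all 14892 anchor regions counted alike, 29.0% were higher and 16.5% lower. All 4 higher genes lacked a SW480 anchor. Where both libraries had PETs, the median ratio was 0.587 over 5534 regions. Of 4483 such regions that met the rule's minimum, 8.97% were higher and 40.3% lower in SW620, so the SMAD3 ratio of 0.411 (interval 0.318 to 0.536) and the BMP4 ratio of 0.512 (0.348 to 0.770) stood beside a common shift. By loop PETs, 2 of 7 genes were higher in SW620, ID1 and ID2, against 6.26% of regions, and 2 were lower, SMAD3 and BMP4, against 7.05%. Both higher genes lacked a SW480 anchor here too. With loop PETs in both libraries, 5.77% of regions were higher and 26.6% lower in SW620 and the median ratio was 0.729, while BMP4 was at 0.186 (0.111 to 0.321) and SMAD3 at 0.460 (0.283 to 0.785). The SMAD3 calls ended when scaled by chromosome, at 0.504 (0.390 to 0.656) by same-anchor PETs and 0.602 (0.370 to 1.03) by loop PETs. The ID2 call by loop PETs ended with loops of at least 2 PETs, at 1.73 (lower bound 1.36).

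HCT116 and LS513 could be compared on identical anchors. By same-anchor PETs 3 of 10 genes were lower in HCT116, BMP2 (0.248), BMP4 (0.350) and SKIL (0.321, from 4 and 20 PETs, with an interval that held 1 when scaled by all intrachromosomal PETs), and 0 were higher. The background was 7.34% of regions lower and 18.6% higher, and the median ratio was 0.734 over the 10 genes and 1.15 over 17296 regions. ID3 was 1.51-fold higher in HCT116 (interval 1.27 to 1.79), under the 2-fold mark. By loop PETs 1 of 8 genes, SMAD3, was higher in HCT116, against 8.89% of regions, and 0 were lower, against 8.71%. That share is near the background, and the SMAD3 call ended with all intrachromosomal PETs as the scale.

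When each gene's leading line was set against the next, 2 of 10 genes passed by same-anchor PETs, SMAD3 in SW480 and BMP2 in LS513, against 28.8% of regions. By loop PETs 2 of 8 passed, SMAD3 in SW480 and BAMBI in SW620, against 18.7%, and neither passed when scaled by chromosome. The leading lines of the other genes tested were under 2-fold above the next.

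**Figure D4:**
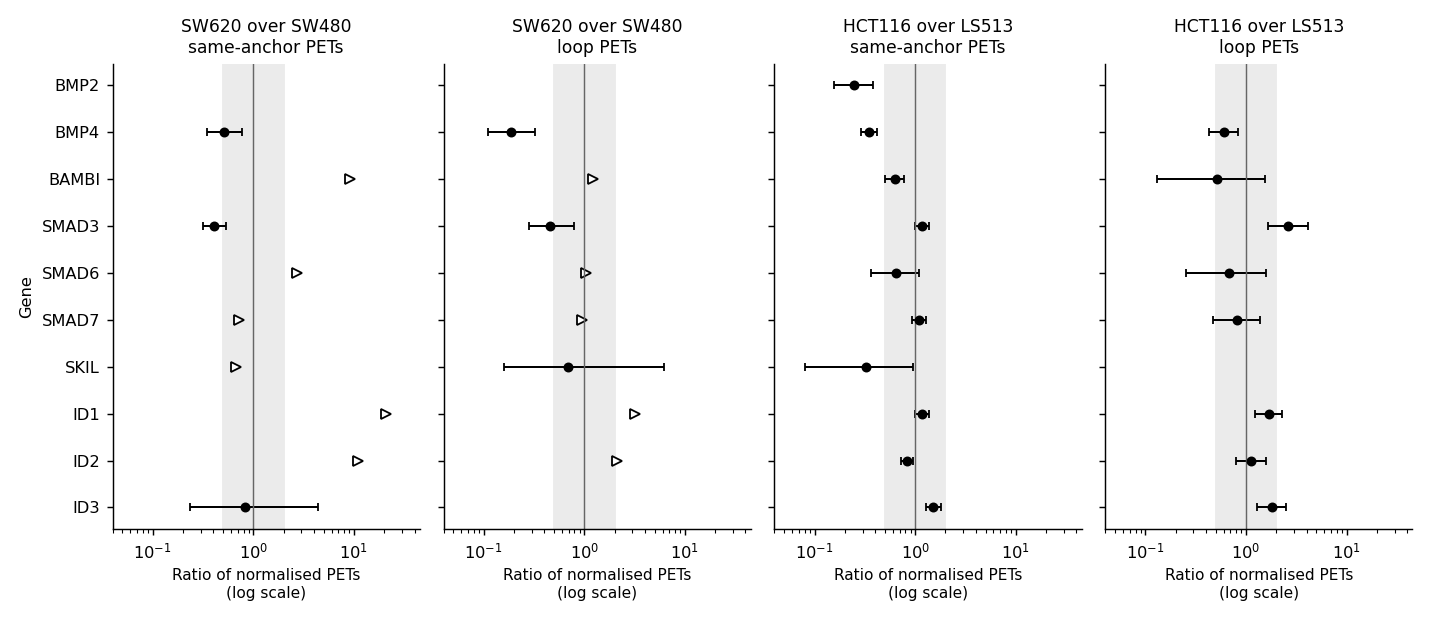
Ratios of normalised PETs for SW620 over SW480 and HCT116 over LS513 on log axes, with exact 95% intervals; open triangles are lower bounds where SW480 had a count of 0, the grey band spans 0.5 to 2, and genes with under 10 PETs in both lines are left out. BMP2, BMP4 and SKIL lie below the band for HCT116 over LS513 by same-anchor PETs.

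The share of loops found again in another line was counted for the 10 genes and for all loops, with no test of the difference. Of 107 SW620 loops, 17.8% had a match in SW480, 43.0% in HCT116 and 49.5% in LS513, against 5.51%, 25.3% and 36.4% of all SW620 loops. Of 22 SW480 loops, 90.9% had a match in SW620 (interval 70.8 to 98.9), against 46.9% of all. In HCT116 and in LS513 alike, 11 of the 22 SW480 loops had a match (28.2% to 71.8%), against 29.3% and 35.7% of all, with intervals that reached those shares. HCT116 loops matched LS513 in 73.6% of 87, against 62.1%, and LS513 loops matched HCT116 in 55.2% of 116, against 34.0%. The share with an FDR below 0.01 in the authors' deposited table was 28.0% in SW620, 22.7% in SW480, 29.9% in HCT116 and 31.0% in LS513, against 17.2%, 14.5%, 12.8% and 18.2% of all loops. The part of loop strength in the matching shares was not tested. Among the 43 SW620 loops found in both HCT116 and LS513, 12 belonged to ID2, 7 each to BMP4 and SMAD3, 6 to ID1 and 0 to SKIL. The ID2 number is raised by its pair of SW620 anchors, which both lie in the single anchor of HCT116 and LS513. Each of its partners found in both lines was joined to both SW620 anchors and so was counted for each, and the number does not rank ID2 above the others.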

How the data were processed

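H3K27ac HiChIP had been run on 4 untreated lines, 1 library each. Per the labels, chromatin was cut with MboI and libraries were made with Tn5. Per the submitters' processing notes, HiC-Pro and build hg19 (GRCh37) were used; the loop caller and anchor source were not given in the sources used here. All deposited tables hold whole-number counts of PETs per anchor pair. A further deposited table gives each loop a value from 0 to 1 in a column without a name, taken to be an adjusted p-value (FDR) of the authors. Chromosomes 1 to 22 and X were used.

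Same-anchor pairs came from the intrachromosomal table and loops from the filtered table, each loop counted a single time per gene. Ratios carry exact conditional (Clopper-Pearson) 95% intervals, and a count of 0 was set to 3 for a fold. PETs carry no molecular identifiers, so intervals and floors cover counting error only. The same calls were made in windows of the same width on the midpoints of 32257 merged anchor regions. The floor of 3 counts stood at 3.55 normalised same-anchor and 19.7 normalised loop PETs in SW620 and at 23.0 and 216 in SW480. It stood at 3.48 and 36.8 in HCT116 and at 2.16 and 13.5 in LS513. The interval of a count of 0 reached above this floor, to 266 normalised loop PETs in SW480. Calls were run on simulated counts that held counting error only, with no missing anchors and no differences in anchor length. The simulation thus does not bear on calls where SW480 lacks an anchor. The text names all 10 genes and, per gene and line, the loop with most PETs (at least 3); other loops, and smaller counts, were chosen after their values were seen. The genes and lists were chosen with earlier results of these data known. With no hg19 annotation at hand, other pathway genes and cell type markers were not analysed here. Alternatives covered the distance limit, scaling, minimum fold, anchor length and loop strength. Limits of 20 kb and PETs in both libraries were added after seeing the data. Software was scipy 1.17.1, pandas 2.3.3, matplotlib 3.10.9 and numpy 2.4.6 under Python 3.11.15.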

Additional observations from a re-analysis of the deposited data

Results flagged for a closer look

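PETs between chromosomes, which no comparison above uses, had an end within 5 kb of the 10 start sites in every line. These PETs numbered 93 in SW620, 5 in SW480, 90 in HCT116 and 175 in LS513, each above the floor of 3 counts. They were 0.164%, 0.125%, 0.294% and 0.263% of the interchromosomal PETs of these lines in that order, beside 0.146%, 0.0927%, 0.192% and 0.228% of the same-anchor PETs. ID1 had most in SW620, with 24, and SMAD7 most in LS513, with 40. No anchor pair held more than 1 such PET except at ID2 in SW620, where the highest was 2.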

How the results depend on the processing

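No paired analysis was possible because each line had 1 library. Counts of genes were small, so single genes moved them. For SW620 over SW480 by same-anchor PETs, 4 genes were higher, but 0 with PETs in both libraries. The 1 lower gene became 0 with anchors within 10 kb or scaling by chromosome, and 2 when scaled by all intrachromosomal PETs or with a minimum fold of 1.5 or none. By loop PETs, 2 higher genes became 1 with anchors within 2 kb or 20 kb, loops of at least 2 PETs or FDR below 0.01, and 0 with PETs in both libraries. The 2 lower genes became 1 when scaled by chromosome, by all intrachromosomal PETs, or with FDR below 0.01. For HCT116 over LS513 by same-anchor PETs, 0 higher became 1 with a minimum fold of 1.5 or none, and 3 lower became 5 with none. By loop PETs, 1 higher became 0 when scaled by all intrachromosomal PETs, 2 with loops of at least 2 PETs, and 3 with FDR below 0.01 or a minimum fold of 1.5 or none. There 0 lower became 2 when scaled by all intrachromosomal PETs and 1 with a minimum fold of 1.5 or none. For the leading line over the next, 2 genes by same-anchor PETs became 1 with anchors within 10 kb or per kb of anchor, 6 with a minimum fold of 1.5 and 7 with none. By loop PETs, 2 became 1 with anchors within 10 kb or scaling by all intrachromosomal PETs, 0 when scaled by chromosome, and 5 with a minimum fold of 1.5 or none. The ratio SW620 over SW480 turned for BAMBI by same-anchor PETs, to 0.879 within 10 kb and 0.942 within 20 kb, where a SW480 anchor enters. By loop PETs it turned for ID2, to 0.976 within 20 kb, where SW480 anchors enter, and 0.789 with FDR below 0.01, where SW480 stays at the floor and SW620 has fewer loops. For SMAD3 it turned to 1.72 with FDR below 0.01, where SW480 has no loop. The uncalled loop ratio of BAMBI, 1.21, became 0.3 within 10 kb, 0.397 within 20 kb and 0.741 with FDR below 0.01, and that of SMAD7, 0.941, became 3.17 when scaled by chromosome, where 3 genes were higher. Of 242 ratios of single genes under these alternatives, 206 lay in the interval of the value reported. Depth limits SW480 most. The interval of a count of 0 there reaches 266 normalised loop PETs. A count of 0 loop PETs at ID3, SMAD6, SMAD7 or BAMBI within 5 kb thus did not show a difference from SW620 on the scale of the report.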

Other observations

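The promoters differed in how many partners they had. In HCT116 the ID3 anchor had 22 partners, and 99.7% of 18501 looped anchors, with a median of 3, had as many or fewer. BMP4 had 16 there, and 23 in LS513, where the median over 20456 anchors was 5. In SW620 the main SMAD3 anchor had 20 partners, against a median of 4 over 22207 anchors, and the ID3 anchors had 5 and 2. In SW480 BMP4 had 12 partners and SMAD3 8, against a median of 2 over 6116 anchors. The ID3 anchor of HCT116 and LS513 is also one of the longer ones, at 26.9 kb, and the part of its length in the partner number was not tested.

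Relative to its own mark, BMP4 was well looped in every line. It had 40.5 loop PETs per 100 same-anchor PETs in SW620, 65.7 in SW480, 35.3 in HCT116 and 34.6 in LS513. In anchors of like same-anchor counts, 76.8%, 96.9%, 94.1% and 81.4% had as few loop PETs or fewer, in that order of lines. The trait was not particular to BMP4. At SMAD6 that share was 86.6% in SW620, 80.6% in HCT116 and 78.0% in LS513, the lines where it had an anchor. SKIL in LS513, with 20 same-anchor PETs, had 0 loop PETs, as did 5.71% of 2733 like anchors.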
